A study of Homo sapiens with 6 samples.

Results

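IRF1, SOCS1, GBP4 and ERAP1 are 4 of the 14884 gene symbols measured here, a transcription factor and 3 genes that lie downstream of interferon signalling. They were chosen by symbol because all 4 were higher with ATRA in these same arrays, so their differences between the groups are given as a description and were not tested. Each symbol was read from 1 probe set, the only one that carried it. The cells were of 1 established line, MM.1S, which derives from human multiple myeloma, a cancer of antibody-secreting plasma cells. Every culture, controls included, first had a 1 h pulse of Cfz, the usual abbreviation of the proteasome inhibitor carfilzomib, at a dose that the labels do not state. The cells then spent 12 h with 10 µM ATRA (all-trans retinoic acid, which activates the retinoic acid receptors) on 3 arrays, or with the solvent DMSO on 3 arrays. Cells without Cfz were not analysed here, and no label tells whether replicate arrays stem from independent cultures, so the p-values below reflect the spread of these samples alone, which may be technical.

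IRF1 is a transcription factor that interferon-gamma switches on through the kinases JAK1 and JAK2, a signal that ends at the GAS element (gamma-activated site) of the IRF1 gene. IRF1 protein in turn binds IRF elements, also called interferon-stimulated response elements, in genes of antigen presentation, of defence against intracellular microbes and of growth arrest. SOCS1 closes the loop by inhibiting the JAK kinases. Retinoic acid is known to raise IRF1 in other cell types, among them myeloid leukaemia cells.

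The promoter windows of the 4 genes are shown because each holds short motifs of this circuit. Each window runs from 250 bases before to 50 bases after an annotated start, on GRCh38.p14, and all lie on the minus strand, at chr5:132490724-132491023 for IRF1, chr16:11256155-11256454 for SOCS1, chr1:89198893-89199192 for GBP4 and chr5:96807896-96808195 for the first of the RefSeq windows of ERAP1. The RefSeq windows of ERAP1 lie inside the annotated span of the gene (96760813 to 96935854). None of them covers the upper end of that span, where a minus-strand gene begins. The sequences are RefSeq's, 5′ to 3′ along each gene, and capitals mark matches to the motifs.
IRF1: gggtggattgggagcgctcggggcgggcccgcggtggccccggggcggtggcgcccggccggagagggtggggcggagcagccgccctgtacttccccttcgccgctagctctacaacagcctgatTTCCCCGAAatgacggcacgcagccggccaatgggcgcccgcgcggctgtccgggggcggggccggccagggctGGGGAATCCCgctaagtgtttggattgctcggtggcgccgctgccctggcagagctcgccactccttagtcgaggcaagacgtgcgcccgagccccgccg
SOCS1: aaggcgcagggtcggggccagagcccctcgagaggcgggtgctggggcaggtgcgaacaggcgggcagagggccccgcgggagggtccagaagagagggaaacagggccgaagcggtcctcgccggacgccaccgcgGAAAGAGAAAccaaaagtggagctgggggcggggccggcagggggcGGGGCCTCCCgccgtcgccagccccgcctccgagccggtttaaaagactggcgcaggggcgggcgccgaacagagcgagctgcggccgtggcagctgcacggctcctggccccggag
GBP4: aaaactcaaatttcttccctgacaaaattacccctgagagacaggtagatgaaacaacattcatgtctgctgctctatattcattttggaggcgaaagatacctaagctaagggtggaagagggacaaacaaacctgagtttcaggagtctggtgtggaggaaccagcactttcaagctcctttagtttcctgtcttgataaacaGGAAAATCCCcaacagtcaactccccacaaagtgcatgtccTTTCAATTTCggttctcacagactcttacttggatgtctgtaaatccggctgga
ERAP1: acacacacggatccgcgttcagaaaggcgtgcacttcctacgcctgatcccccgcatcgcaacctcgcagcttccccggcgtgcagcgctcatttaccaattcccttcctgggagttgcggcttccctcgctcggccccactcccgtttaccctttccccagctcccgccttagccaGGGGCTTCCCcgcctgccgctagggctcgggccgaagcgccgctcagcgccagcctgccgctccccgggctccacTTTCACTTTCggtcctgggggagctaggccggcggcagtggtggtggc

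The motifs searched on both strands were the GAS letters TTCNNNGAA, the IRF element, here GAAA repeated with 2 bases between the copies, the kappaB motif of the NF-kappaB factors, and the retinoid half-site AGGTCA, alone or as direct repeats with 1, 2 or 5 bases between the copies. They were picked from textbook knowledge with the members' sequences in view. The IRF1 window held a GAS match at positions -124 to -116 and a kappaB match at -50 to -41, counted from the annotated start with no position 0. The other 3 genes each held an IRF element and a kappaB match. In SOCS1 the IRF element lay at -113 to -104 and the kappaB match at -67 to -58. In GBP4 the IRF element straddled the start, at -4 to 6 on the opposite strand, with the kappaB match at -45 to -36. In ERAP1 the IRF element lay at 3 to 12 on the opposite strand and the kappaB match at -73 to -64. No match overlapped another. The second ERAP1 window, at chr5:96814096-96814395, held 0 matches, and the retinoid half-site was in none of the 5 windows. Of 35116 RefSeq windows of the same length, 7.66% held a GAS match, 3.57% an IRF element, 11.3% a kappaB match and 13.8% a retinoid half-site. Counted by gene, with at least 1 window that matched, the shares of the 10749 tested symbols with a window were 8.79%, 3.89%, 15.9% and 14.9%. The direct repeats with 1, 2 and 5 bases between the copies were in 8, 1 and 2 windows of the 35116. A match is a run of letters and not a measured binding site.

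**Figure D1:**
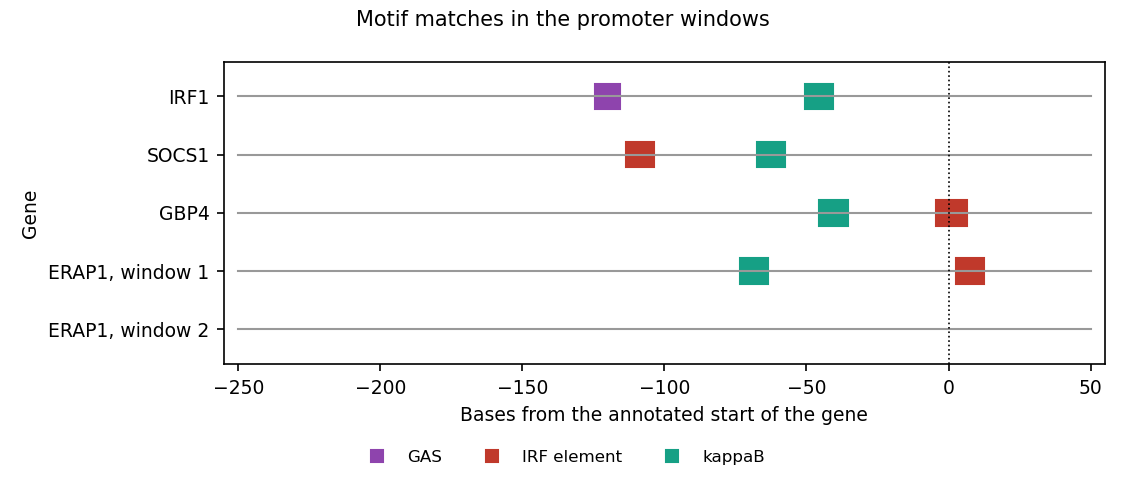
Motif matches in the promoter windows of the 4 genes, with bases from each window's annotated start on the horizontal axis, 1 row for each window and coloured boxes for GAS, IRF element and kappaB matches. IRF1 has the GAS match, SOCS1, GBP4 and the first ERAP1 window have an IRF element each, and all of these 4 windows have a kappaB match.

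IRF1 was higher on every ATRA array than on any DMSO array. The IRF1 intensity (linear units of the deposited values) was 434, 415 and 412 on the 3 ATRA arrays, against 172, 173 and 181 on the 3 DMSO arrays. The arrays of a group were close together, and the lowest ATRA array was 2.27-fold above the highest DMSO array. Mean IRF1 intensity was 420 ± 11.8 with ATRA and 175 ± 5.33 with DMSO (SD, n = 3 arrays each), a 2.40-fold difference of geometric means or 1.26 on the log2 scale. This was the 43rd highest difference of all 14884 symbols. In bulk RNA, more cells making IRF1 and more IRF1 RNA per cell cannot be told apart, and the same holds for the genes below.

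SOCS1, whose protein blocks JAK kinase activity and marks signalling proteins for degradation, was dim but separated. SOCS1 intensity was 31.4, 30.7 and 24.8 with ATRA, against 14.8, 16.9 and 17.0 with DMSO. The third ATRA array was the lowest of its group and still 1.46-fold above the highest DMSO array. The means were 29.0 ± 3.64 with ATRA and 16.2 ± 1.22 with DMSO. SOCS1 was 0.83 higher on the log2 scale, the 132nd highest difference of all symbols. Both groups lay in the range of probe sets for genes of other cell types, and adding 16 intensity units before the log2 step brought the difference to 0.48, so its size is uncertain.

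GBP4, a guanylate-binding protein of the family of interferon-inducible GTPases, had the widest gap and the widest spread. GBP4 intensity was 42.1, 69.3 and 41.1 with ATRA, against 6.52, 6.12 and 16.8 with DMSO. The groups did not overlap, but the second ATRA array stood above the other two and the third DMSO array was more than 2-fold above both of its group. The means were 50.8 ± 15.98 with ATRA and 9.81 ± 6.05 with DMSO, and the log2 difference was 2.49, the 8th highest of all symbols. Without the third DMSO array the log2 difference was 2.96, and with 16 units added before log2 it was 1.37. The DMSO values lay near the floor of the arrays, so the 5.63-fold difference of geometric means is not a firm size.

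ERAP1, the endoplasmic reticulum aminopeptidase that trims peptides to the length that MHC class I molecules hold, was higher with ATRA, with arrays of each group that lay close together. ERAP1 intensity was 213, 213 and 219 with ATRA, against 143, 138 and 148 with DMSO. All 3 ATRA arrays were above all 3 DMSO arrays, the lowest by 1.44-fold over the highest DMSO array. The means were 215 ± 3.30 with ATRA and 143 ± 4.90 with DMSO, a 1.51-fold difference of geometric means or 0.59 on the log2 scale. That difference was the 277th highest of all symbols. On the log2 scale the SDs of ERAP1 were 0.022 with ATRA and 0.050 with DMSO, where those of GBP4 were 0.43 and 0.82.

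**Figure D2:**
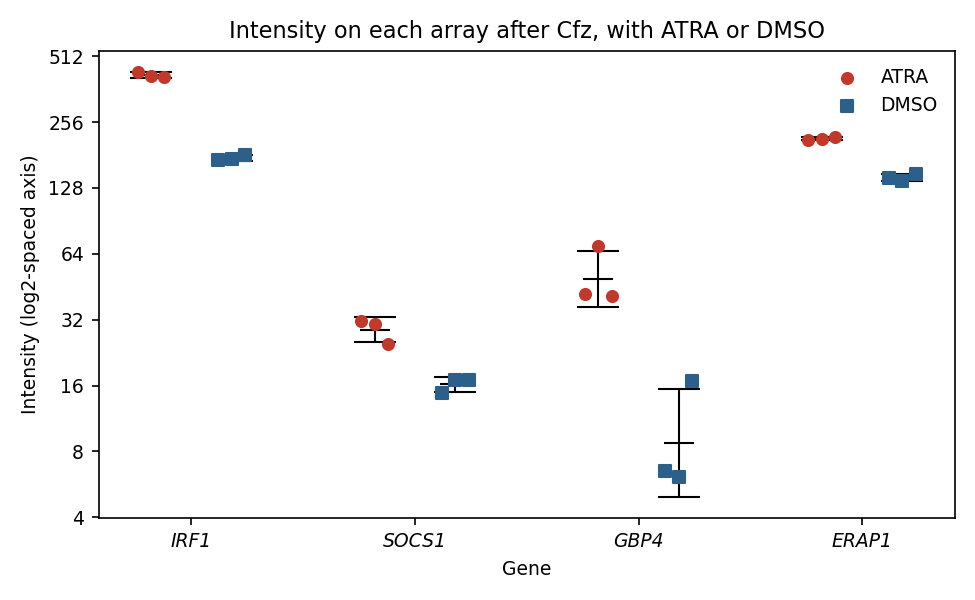
Intensity of IRF1, SOCS1, GBP4 and ERAP1 on each of the 3 ATRA arrays (red circles) and 3 DMSO arrays (blue squares), on a log2-spaced axis, with black bars at the geometric mean ± 1 SD of the log2 values. ATRA arrays sit above DMSO arrays for each gene, with IRF1 at 412 or more against 181 or less, and GBP4 is the most scattered.

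**Figure D3:**
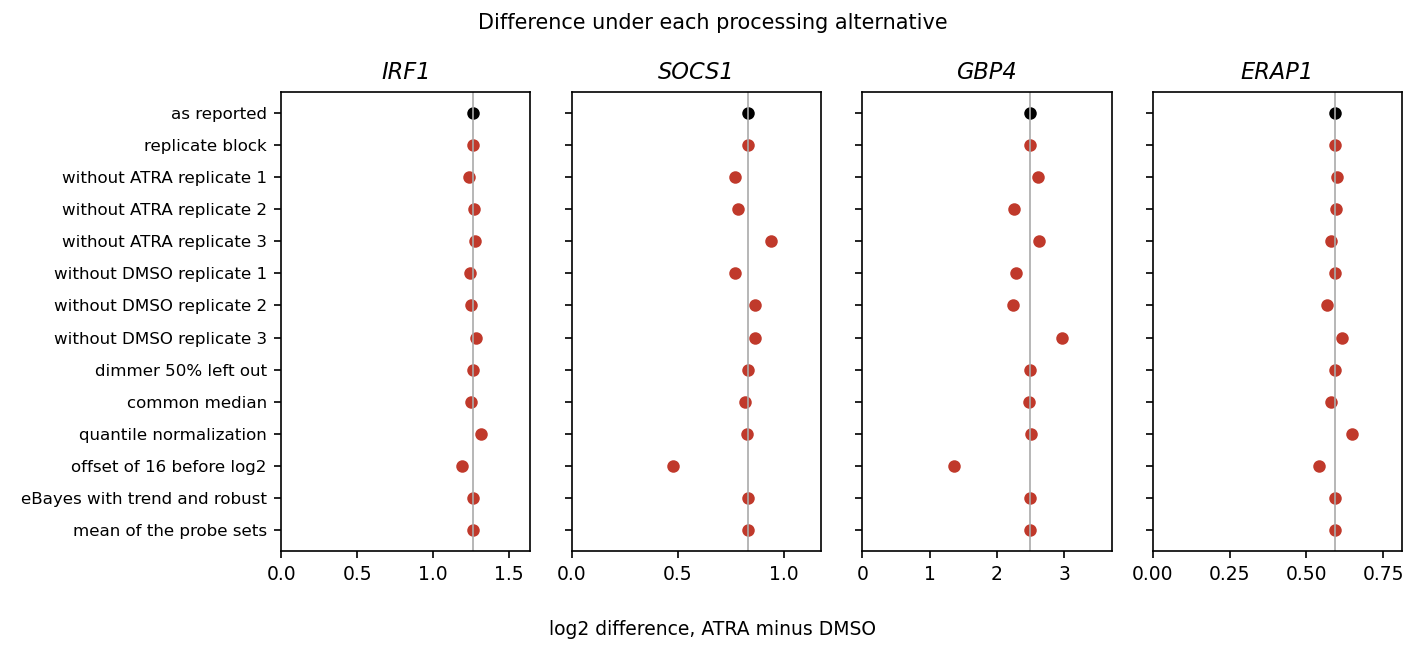
Log2 difference of ATRA minus DMSO for each of the 4 genes (panels, axes from 0) as reported (black) and under each processing alternative (red), with a grey line at the reported value. An offset of 16 before log2 gives 1.19, 0.48, 1.37 and 0.54 for IRF1, SOCS1, GBP4 and ERAP1, and quantile normalization gives 1.31 for IRF1 and 0.65 for ERAP1.

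The groups did not overlap for any of the 4 genes, which the choice of genes higher with ATRA had favoured. Of all symbols, 3.80% passed an adjusted p of 0.05 (565 of 14884 by limma with Benjamini-Hochberg adjustment), 1.73% passed with a higher and 2.07% with a lower level in ATRA, and 9.86% were higher in ATRA with groups that did not overlap. Quantile normalization turned that split, with 301 called higher and 267 lower. It also turned with replicate numbers as a block (113 and 87). Leaving out any 1 array turned it too, except the second ATRA array (152 and 165). A p under 0.05 before adjustment was reached by 17.9% of all symbols, and 8.92% passed with eBayes run with trend and robust. No array stood apart. Log2 values of all symbols correlated between arrays at 0.990 to 0.992 within a group and at 0.985 to 0.987 between groups (across genes, which are not independent replicates). Of 8 measured plasma cell markers of the 11 listed, 6 had a geometric mean intensity above 64, among them SDC1, CD38, XBP1 and IRF4, while FCRL5 and POU2AF1 were dim. Of 29 measured markers of T, NK, myeloid, erythroid, platelet, epithelial, stromal and endothelial cells out of 48 listed, 26 lay at or under 64, from 4.62 to 37.5 with a median of 10.0. The 3 above it were CD28, TRAT1 and KRT18. Summed over those 26 dim markers, intensity was 356 to 374 on the ATRA arrays and 345 to 370 on the DMSO arrays, so the sums of the groups overlapped.

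Around the 4 genes, 7 lists of the circuit were read from the fit over all symbols, with the 4 genes left out of every count. Together the lists name 140 other genes, of which 68 were measured here. Of these 68 genes 4 rose and 2 fell (limma, Benjamini-Hochberg over all 14884 symbols, threshold 0.05), 8.82% in all against the 3.80% of all symbols. Their median log2 difference was 0.02, where that of all symbols was -0.01. The lists were chosen with earlier results of these data known, so the higher share is a description and no independent support. The genes called were PLAAT4, UBE2L6, ICAM1 and WARS1 upward and CXCL10 and STAT4 downward. Of these, only CXCL10 and PLAAT4 kept their calls in all 6 fits that left out 1 array. In 5 of the 7 lists 0 other genes passed.

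**Figure D4:**
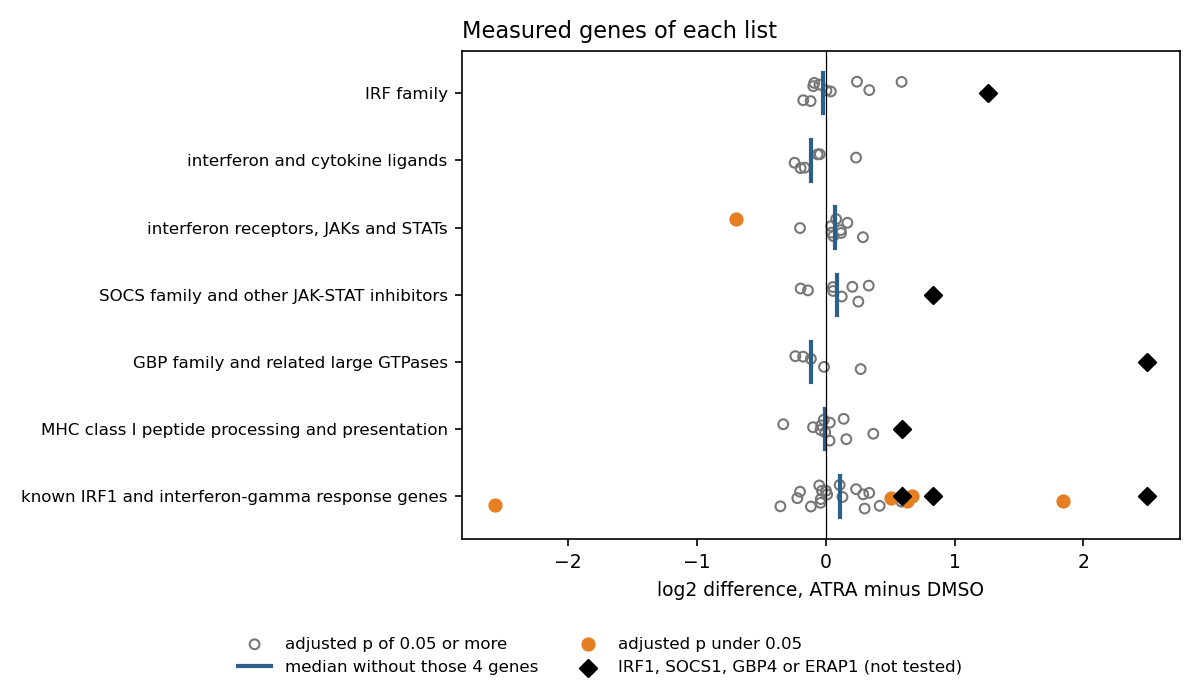
Log2 difference of ATRA minus DMSO for the measured genes of 7 lists, 1 row for each list, with filled orange points for an adjusted p under 0.05, open points for the rest, black diamonds for IRF1, SOCS1, GBP4 and ERAP1, which were not tested, and a blue line at the median without those 4. In the lists of IRF, SOCS, GBP and MHC class I genes the diamond lies to the right of every open point. The choice of the 4 genes for being higher with ATRA favoured this.

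Upstream of IRF1, 1 of the measured ligand, receptor, JAK and STAT genes passed, STAT4. Of the 17 listed interferon and cytokine ligands 6 were measured. In limma's test 0 passed, 0 had a p under 0.05 before adjustment, and 0 passed with eBayes run with trend and robust. The shares of all symbols were 3.80%, 17.9% and 8.92%. The widest differences were those of IL10 (-0.24 on the log2 scale, as are all differences in these lists), IL15 (0.24), IL27 (-0.20) and IL21 (-0.16). The group means of the 6 ligands lay between 4.72 and 18.05, as dim as the markers of other cell types, where a change could not be judged. Interferon-gamma and interferon-beta themselves were not analysed here.

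Of 18 listed interferon receptors, JAKs and STATs 10 were measured, 0 rose and 1 fell. In limma 2 reached a p under 0.05 before adjustment and 1 passed with eBayes run with trend and robust, against 17.9% and 8.92% of all symbols. STAT4, which relays interleukin-12 and type I interferon signals in lymphocytes, had an intensity of 71.6, 90.3 and 96.3 with ATRA, against 127, 152 and 138 with DMSO. All ATRA arrays lay below all DMSO arrays, with a log2 difference of -0.70 (SE 0.14, adjusted p = 0.0398 in limma). STAT4 lost its call in all 6 fits that left out 1 array (adjusted p 0.0618 to 0.125). IFNGR1, the ligand-binding chain of the interferon-gamma receptor, differed by 0.29 (adjusted p = 0.275) with groups that overlapped. The kinase genes JAK2 (-0.20) and TYK2 (0.17) and the signal transducer STAT5A (0.12) did not pass.

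Among the IRF family and its binding proteins, 11 of 12 listed genes were measured. IRF1 stood at 1.26 while the other 10 ranged from -0.17 to 0.59, with a median of -0.02, and 0 of the 10 passed in limma's test. At an unadjusted p under 0.05 there were 2, IRF8 and IRF9, and with eBayes run with trend and robust 2 passed, IRF8 and IRF4, where 17.9% and 8.92% of all symbols did so. IRF8, a lymphoid and myeloid factor of the same family, was at 120 ± 12.8 with ATRA and 79.9 ± 12.3 with DMSO (SD over 3 arrays each). Its groups did not overlap, as was so for 3 of the 10 in all, and the difference of 0.59 did not pass (adjusted p = 0.0771). IRF9, the DNA-binding part of the type I interferon complex, was at 46.6 ± 3.01 with ATRA and 36.8 ± 0.445 with DMSO (difference 0.34, adjusted p = 0.102). IRF2BP2, a corepressor that binds IRF2, differed by 0.24 (adjusted p = 0.373). IRF4, on which myeloma cells depend, was at 1687 ± 117 with ATRA and 1901 ± 13.4 with DMSO (difference -0.17, adjusted p = 0.383). IRF2, the antagonist that binds the same element as IRF1 and is named here after its value was seen, differed by 0.04 (adjusted p = 0.883).

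Among the SOCS family and other inhibitors of JAK-STAT signalling, 9 of 19 listed genes were measured. SOCS1 stood at 0.83, and the other 8 ranged from -0.20 to 0.33 with a median of 0.09. Of these 8, 0 passed in limma's test and 0 with eBayes run with trend and robust, against 3.80% and 8.92% of all symbols. An unadjusted p under 0.05, reached by 17.9% of all symbols, was found for 1 of the 8. That was USP18, a protease that removes ISG15 and blocks the type I interferon receptor, at 24.2 ± 3.49 with ATRA and 19.1 ± 1.27 with DMSO (difference 0.33, adjusted p = 0.219). SOCS2 (0.25), SOCS3 (0.21) and CISH (-0.20), all inhibitors of cytokine receptors, had adjusted p-values of 0.360, 0.435 and 0.326. Group means of SOCS2, SOCS3 and CISH lay between 12.7 and 23.3, as dim as the markers of other cell types.

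Of the GBP family and related large GTPases 6 of 14 listed genes were measured. GBP4 stood at 2.49, and the other 5 ranged from -0.24 to 0.27 with a median of -0.12. By limma 0 of these 5 passed, 0 reached a p under 0.05 before adjustment, and 0 passed with eBayes run with trend and robust. Of all symbols 3.80%, 17.9% and 8.92% did so. GBP3 was at 249 ± 66.4 with ATRA and 207 ± 53.1 with DMSO (difference 0.27, adjusted p = 0.642). GBP5, a guanylate-binding protein that promotes inflammasome assembly, had intensities of 4.77 ± 0.321 with ATRA and 5.17 ± 0.328 with DMSO. These lie at the bottom of the arrays, where a change could not be judged. The atlastin genes ATL1 (-0.24) and ATL3 (-0.18), GTPases that fuse endoplasmic reticulum tubules, did not pass. GBP1, GBP2, GBP6 and GBP7 were not analysed here.

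The wider machinery of MHC class I peptides was represented by 12 of 28 listed genes. ERAP1 stood at 0.59, and the other 11 ranged from -0.33 to 0.37 with a median of -0.005. By limma 0 of these 11 passed, 2 reached a p under 0.05 before adjustment, and 3 passed with eBayes run with trend and robust, against 17.9% and 8.92% of all symbols. ERAP2, the companion aminopeptidase, was at 337 ± 18.9 with ATRA and 262 ± 28.2 with DMSO (difference 0.37, adjusted p = 0.136). THOP1, a cytosolic peptidase that destroys presented peptides, was at 232 ± 6.98 with ATRA and 292 ± 24.0 with DMSO (difference -0.33, adjusted p = 0.126). The groups did not overlap for 6 of the 11, which were ERAP2, THOP1, CANX, NPEPPS, TPP2 and NRDC. Of all symbols 9.86% were higher in ATRA without overlap, and the share lower without overlap is not given here. NPEPPS (0.16) and NRDC (0.14), a cytosolic aminopeptidase and an endopeptidase, had adjusted p-values of 0.453 and 0.456. B2M, the light chain of MHC class I, chosen after its value was seen, was at 984 ± 10.8 with ATRA and 1012 ± 16.8 with DMSO (difference -0.04, adjusted p = 0.854). TAP1, TAP2, PSMB8, PSMB9 and the class I heavy chain genes were not analysed here.

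Downstream, a list of 52 known IRF1 and interferon-gamma response genes had 26 measured members, 3 of them SOCS1, GBP4 and ERAP1. Of the other 23, 4 rose, 1 fell and 18 did not pass, where 3.80% of all symbols passed. Among the 18, GBP5, IL7, CXCL9, CXCL11, TRIM22, VCAM1 and RSAD2 had group means between 4.77 and 8.12. That is as dim as the markers of other cell types, where a change could not be judged. The counts and the median that follow include these dim genes. In mean 14 of the 23 were higher and 9 lower, and their median difference was 0.11 against -0.01 for all symbols. In limma 8 reached a p under 0.05 before adjustment and 6 passed with eBayes run with trend and robust, against 17.9% and 8.92% of all symbols. PLAAT4, a phospholipase family gene known as an interferon and retinoid response gene, had an intensity of 177, 147 and 162 with ATRA, against 52.5, 39.3 and 44.9 with DMSO. The gap between the groups was wide, with a log2 difference of 1.84 (SE 0.13, adjusted p = 0.000751 in limma). UBE2L6, the conjugating enzyme for ISG15, was at 118 ± 8.26 with ATRA and 74.0 ± 4.26 with DMSO (SD, n = 3), and its log2 difference was 0.67 (SE 0.099, adjusted p = 0.0139). ICAM1, an adhesion molecule for T and NK cells, was at 359 ± 32.7 with ATRA and 233 ± 27.2 with DMSO, and its difference was 0.63 (SE 0.12, adjusted p = 0.0401). WARS1, the tryptophanyl-tRNA synthetase, known for its strong induction by interferon-gamma, was at 71.5 ± 5.04 with ATRA and 50.4 ± 4.205 with DMSO (difference 0.51, SE 0.11, adjusted p = 0.0490). Its second, dimmer probe set differed by -0.30, and with both averaged WARS1 was at 0.10 and no longer called (adjusted p = 0.748).

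CXCL10, a chemokine for T cells and a textbook interferon-gamma and IRF1 response gene, fell with ATRA. CXCL10 intensity was 242, 277 and 287 with ATRA, against 1513, 1607 and 1654 with DMSO, and the log2 difference was -2.57 (SE 0.10, adjusted p = 5.07e-05 in limma). The levels on the 3 ATRA arrays were close together and far below those of all DMSO arrays. Its promoter window also held an IRF element, at -221 to -212, and kappaB matches at -177 to -168 and -122 to -113, so that the genes with such matches included both higher and lower ones. Of the 5 called list genes that have a window, CXCL10 among them, 2 held an IRF element and 1 a kappaB match. Of the genes that did not pass, those with the widest differences were IRF8, CD274 (0.42, adjusted p = 0.119), which encodes the checkpoint ligand PD-L1, IL18BP (-0.35, adjusted p = 0.342), which encodes a decoy for interleukin-18, and IRF9. With 1 array left out, CXCL10 and PLAAT4 kept their calls in all 6 fits. UBE2L6 kept it in 1 of the 6 (adjusted p up to 0.0614), and ICAM1 and WARS1 in 0 (up to 0.123 and 0.147).

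**Figure D5:**
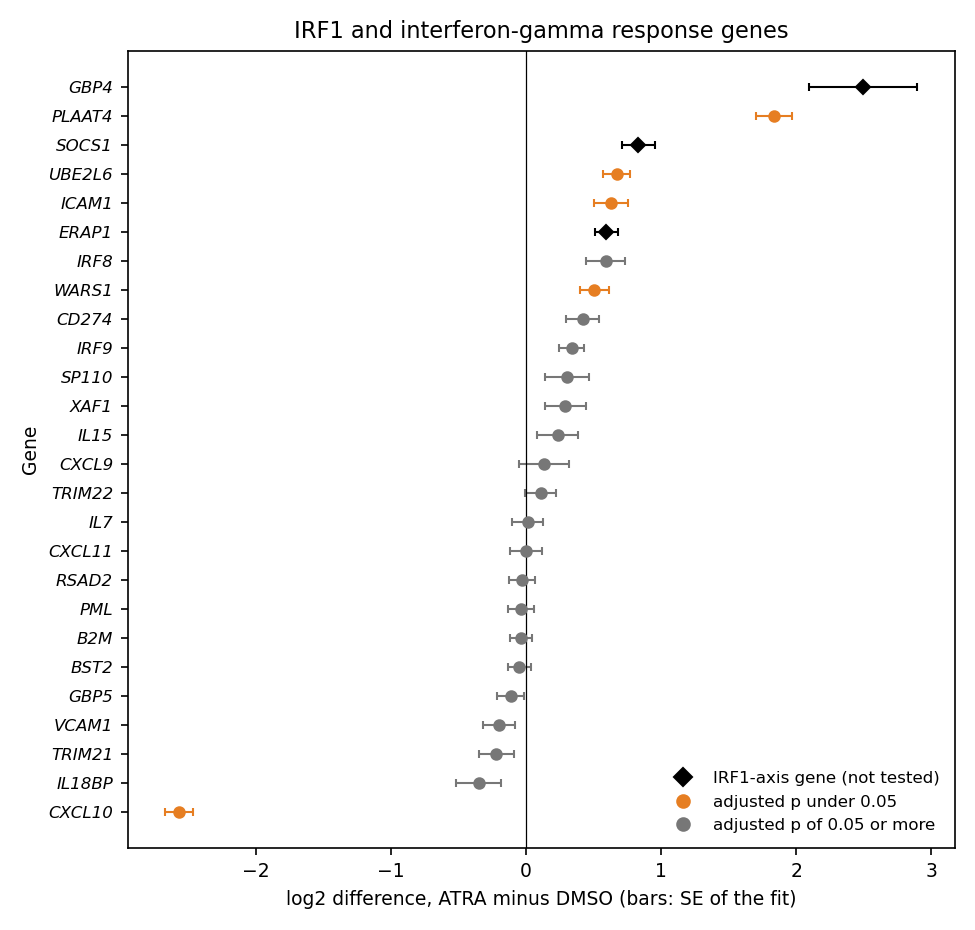
Log2 difference of ATRA minus DMSO for the 26 measured genes of the list of IRF1 and interferon-gamma responses, with bars for the SE of the fit, orange for an adjusted p under 0.05, grey for the rest and black diamonds for genes that were not tested. GBP4 at 2.49 and PLAAT4 at 1.84 lie at the top, CXCL10 at -2.57 at the bottom, and most of the others between -0.35 and 0.42.

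Of the 8 nearest measured neighbours in the genome, on both sides of the 4 genes, 0 passed in limma's fit. As 3.80% of all symbols passed, 0 of 8 is no result about these neighbourhoods. ERAP2 alone had a p under 0.05 before adjustment, and it passed with eBayes run with trend and robust (adjusted p = 0.0161). Of all symbols 17.9% and 8.92% did so. ERAP1 (GRCh38.p14, chromosome 5, 96760813 to 96935854) overlaps in annotation with CAST, the calpain inhibitor gene, on its lower side and with ERAP2 on its upper side, so signal from shared stretches cannot be assigned from the gene symbols alone. CAST intensity was 224 ± 16.2 with ATRA and 211 ± 2.15 with DMSO, which differ by 0.08 on the log2 scale (limma adjusted p = 0.709). GBP4 (chromosome 1, 89181144 to 89198942) has GBP3 and GBP5 as its nearest measured neighbours, 158278 and 57247 bases away, and neither passed. Beside IRF1 (chromosome 5, 132481609 to 132490773) the DNA repair gene RAD50, 66204 bases away, was at 478 ± 12.7 with ATRA and 419 ± 14.6 with DMSO (difference 0.19, adjusted p = 0.306). The microRNA gene MIR3936 on the other side of IRF1 was at the bottom of the arrays (difference -0.004, adjusted p = 0.989). Beside SOCS1 (chromosome 16, 11254417 to 11256204) the sperm nuclear protein gene TNP2, 11653 bases away, differed by 0.21 (adjusted p = 0.689) and DEXI, 311949 bases away, by 0.09 (adjusted p = 0.796).

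Genes were also ranked by how closely they followed each of the 4 over the arrays. Likeness was Pearson's r of log2 values over the 6 arrays among 5514 protein-coding genes whose values spanned at least 0.5, and since the arrays form 2 groups, it mostly reflects the difference between ATRA and DMSO. Among the 4 genes r was highest between IRF1 and ERAP1, at 0.995, and lowest between SOCS1 and GBP4, at 0.925. The genes most like IRF1 were MAPKAPK2, a stress kinase downstream of p38 (r = 0.9997), SCD, the stearoyl-CoA desaturase (0.9996), and ERN1, the endoplasmic reticulum stress sensor IRE1 (0.999). MAPKAPK2 intensity was 543 ± 6.95 with ATRA and 217 ± 6.07 with DMSO. Those most like SOCS1 were KLF2 (0.995), a transcription factor of lymphocyte quiescence, MPPED2 (0.995) and TMEM268 (0.994). Those most like GBP4 were the transcription factor KLF12 (0.995), NECAB2 (0.987) and the histone demethylase KDM5B (0.986). ERAP1 was most like HAPLN3 (0.998), a hyaluronan-linking protein, UAP1 (0.997), an enzyme of hexosamine synthesis, and SCD (0.997). By the mean r with all 4 genes the first were the kinase gene STK38 (0.978) and the Notch ligand gene JAG1 (0.977).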

How the data were processed

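Total RNA of 6 MM.1S samples was labelled with a whole-transcript kit and hybridised to 1-colour arrays, per the labels. RMA and limma are named in the submitters' processing notes, without role or version. The authors deposited linear intensities (2.53 to 14038) of 53617 probe sets, and the background correction and normalization were kept as they were, so any compression of low values remains. Values were turned to log2 with no offset and no filter. The 16098 probe sets with 1 symbol in the platform annotation (30.0%) gave 14884 symbols, each read from its probe set of highest mean, and 37519 probe sets are unnamed here. Names, positions and promoters come from RefSeq tables on GRCh38.p14, which may not be the authors' build. ATRA was tested against DMSO with limma 3.58.1 in R 4.3.3 (lmFit, eBayes, no block, two-sided, Benjamini-Hochberg over all symbols), checked on simulated data. The design had left the scale of the values open and foresaw the log2 step. SDs are over 3 arrays of a group, and the number of arrays limits the precision.

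The 4 genes, the lists and the tests were chosen with earlier results of these data known. Genes named from each list are those called and up to 4 others with the widest difference; for each of the 4 genes the 3 most like it and its nearest measured neighbours were added. Alternatives were a replicate block, single arrays left out, only the brighter 50% of symbols, a common median, quantile normalization, an offset of 16, eBayes with trend and robust, the mean of the probe sets and every probe set by itself.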

Additional observations from a re-analysis of the deposited data

How the results depend on the processing

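The 4 genes stayed higher with ATRA under each alternative run for them, which for most alternatives was fixed in advance. The replicate block, the brighter 50%, trend and robust, and the mean of the probe sets could not change these differences. Leaving out 1 array or adding an offset could not reverse them, as the groups did not overlap. With 1 array left out the log2 difference lay between 1.24 and 1.29 for IRF1, 0.77 and 0.94 for SOCS1, 2.24 and 2.96 for GBP4, and 0.57 and 0.62 for ERAP1. An offset of 16 before log2, which by construction shrinks differences of dim genes, gave 1.19, 0.48, 1.37 and 0.54 for IRF1, SOCS1, GBP4 and ERAP1. Quantile normalization gave 1.31 for IRF1 and 0.65 for ERAP1. Of all symbols 565 were called. Leaving out the dimmer 50% of symbols, which tests fewer genes, gave 1143, the offset 1218, eBayes with trend and robust 1327, and leaving out 1 array, with fewer samples, 207 to 317. The replicate block left 200 calls, 0 in the receptor, JAK and STAT list and 2 in the IRF1 and interferon-gamma response list. The deviations of same-numbered arrays correlated at 0.02, 0.01 and 0.02, under the 0.1 required of pairs, so the numbers were not taken as pairs. Each array still correlated best with its own number, a hint from the data and not from the design. Calls higher and lower with ATRA were 257 and 308, against 301 and 267 with quantile normalization, 113 and 87 with the block, 452 and 766 with the offset, 436 and 707 without the dimmer 50% and 494 and 833 with trend and robust. With 1 array left out, more genes were called higher than lower, except without the second ATRA array (152 and 165). In the response list 5 genes were called, 2 to 3 with 1 array left out and 8 without the dimmer 50%. In the receptor list the 1 call became 0 whichever array was left out. In the IRF list 0 calls became 2 without the dimmer 50%, 2 with the offset and 2 with trend and robust, and in the MHC class I list 1, 1 and 3. The cause of the changes with trend and robust and with the replicate block was not tested. SOCS1, GBP4, GBP5 and the ligands are dim, which limits their values.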

Other observations

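Promoter motifs were also counted over the genes called in the comparison, as a description. At least 1 window with an IRF element was found for 10 of 202 genes called higher with ATRA that have a window, with IRF1, SOCS1, GBP4 and ERAP1 left out (4.95%), for 6 of 241 called lower (2.49%) and for 418 of all 10749 symbols with a window (3.89%). A kappaB match was found for 38 of the 202 (18.8%), 41 of the 241 (17.0%) and 1714 of all (15.9%). A GAS match was found for 15 of the 202 (7.43%), 21 of the 241 (8.71%) and 945 of all (8.79%). A retinoid half-site was found for 30 of the 202 (14.9%), 21 of the 241 (8.71%) and 1602 of all (14.9%). Among the 17 genes of the IRF1 and interferon-gamma response list that have a window, 10 held an IRF element (58.8%) and 8 a GAS match (47.1%). These shares were not tested.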
